A study of Mus musculus with 4 samples.

Results

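NuRD, Polycomb and BAF are chromatin complexes, and 53 of their subunit genes were followed here by bulk RNA-seq of the embryonic day 15 mouse cerebral cortex. The genes were chosen by symbol: 14 NuRD, 18 Polycomb and 21 BAF subunits, all 53 present once among the 13289 genes analysed. All 53 passed the low-count filter, as did 13288 of the 13289 genes. Polyadenylated RNA was sequenced from 2 control libraries, titled WT, and 2 Lhx2 cKO libraries, read as a conditional knockout of the LIM-homeodomain factor Lhx2. The driver of the deletion, the deleted exons, and the litter, sex and pooling of embryos are not given in the sources used here, so p-values measure the spread between these libraries, which may be technical in part. Lhx2 itself was at 316 and 287 CPM (read counts scaled to library size with TMM) in control and at 239 and 247 CPM in Lhx2 cKO (log2 fold change -0.31, SE 0.098, adjusted p 0.0191). Its adjusted p was 0.176 without control 1, 0.102 without Lhx2 cKO 1 and 0.0538 without Lhx2 cKO 2. Since the deleted part is not known, this level is no measure of how complete the deletion was.

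NuRD joins an ATP-dependent remodeling motor of the CHD family to histone deacetylases in the same assembly, and it commonly lowers the activity of enhancers and promoters. Polycomb proteins form PRC2, which methylates histone H3, and PRC1, which ubiquitinates histone H2A, and both keep developmental genes silent outside their proper place and time. BAF, the mammalian SWI/SNF complex, uses ATP to slide or evict nucleosomes and often counters Polycomb. In the cortex, BAF is known to change composition as progenitors leave the cell cycle: Actl6a, Phf10 and Ss18 give way to Actl6b, Dpf1 or Dpf3, and Ss18l1. CHD motors are likewise known to be used in turn during cortical development, and LHX2 protein has been found in association with NuRD subunits in embryonic cortex.

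Total counts ranged from 22294237 to 24609627 per library, mitochondrial transcripts took 10.02% to 12.9% of them, and the lowest count of any member in any library was 73. Of 10 markers of dorsal telencephalon 10 were measured, at 18.4 to 1217 CPM in single libraries, and 0 of 8 markers of midbrain, hindbrain and spinal cord were among the genes analysed. No gene analysed had fewer than 102 counts summed over the libraries, so a weakly expressed marker could be missing too. Of the 10 dorsal markers 6 fell, among them Eomes (log2 fold change -1.66), Emx1 (-1.54) and Pax6 (-1.24), and their summed level was 4014 and 3927 CPM in control against 3372 and 3348 CPM in Lhx2 cKO. Marker levels of several cell types differed between the groups. Over all genes tested, 9.17% fell and 11.6% rose at an adjusted p under 0.05 by edgeR. Of 12 genes of cycling cells 11 fell, their summed level being 459 and 512 CPM in control and 307 and 305 CPM in Lhx2 cKO, and of 6 genes of intermediate progenitors 5 fell, from 724 and 725 CPM to 421 and 443 CPM. Of 8 neuronal genes 2 rose and 2 fell (4697 and 4626 CPM against 4808 and 5086 CPM), and of 9 radial glia genes 1 rose and 3 fell (811 and 855 CPM against 785 and 763 CPM). All 5 vessel genes, 7 of 8 microglial genes and 5 of 6 genes of oligodendrocyte precursors rose, with summed levels of 128 and 158, 116 and 117, and 46.8 and 53.6 CPM in control against 203 and 235, 232 and 259, and 87.9 and 96.5 CPM in Lhx2 cKO. 0 of these markers were at 0 counts in any library. The lists share genes: the dorsal markers Eomes, Pax6 and Neurod6 were also counted under intermediate progenitors, radial glia and neurons, respectively. In bulk tissue, fewer cells of a type and less RNA per cell cannot be told apart, and the part of these shifts in the members' values was not tested.

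Subunit levels were lower in Lhx2 cKO for most members, by modest amounts. By edgeR's quasi-likelihood test 16 of the 53 members fell (adjusted p under 0.05 over all genes tested, here termed called) and 0 rose, with 37 not called. An unadjusted p under 0.05 was found for 28 members (52.8%), against 32.0% of all genes tested, and Mbd2, Smarca2 and Ss18l1 were the 3 higher ones. DESeq2 and limma-voom also called 0 members higher. Over all 13288 genes tested, 9.17% were called lower and 11.6% higher, 20.8% in all. Thus 30.2% of the members were called lower. Members were also well expressed, with a median control level of 118 CPM against 27.7 CPM for all genes tested. Among the 7690 genes with a control mean of at least 20 CPM, a level chosen after seeing the data, 12% were called lower and 10.5% higher, while 16 of the 50 members above that level (32.0%) were called lower. The calls depended on the libraries kept, where in a fit without 1 library the lone library of a group is assumed to vary like the others. Without control 1, 7 of the 16 calls were kept (5.98% of all genes then being called lower), without control 2, 15 (8.12%), without Lhx2 cKO 1, 8 (7.53%), and without Lhx2 cKO 2, 9 (5.78%). Hdac1, Smarcd3, Actl6a and Bcl11a were the 4 kept in every such fit. DESeq2 kept 15 of the 16 calls (7.34% of all genes called lower), limma-voom 16 (9.13%), the fit with a GC trend removed 15 (10.5%) and that with a gene length trend removed 14 (9.2%). At an adjusted p under 0.01, 10 members were called lower, with 5.46% of all genes.

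In direction the members were more alike than in calls. The log2 fold change was negative for 43 of 53 members (81.1%), against 49.5% of all genes tested. Its median over the members was -0.20, against 0.003 for all genes tested. Both Lhx2 cKO libraries lay below both control libraries for 35 members (66.0%) and above them for 4, where 29.1% and 30.2% of all genes tested did so. At a control mean of at least 20 CPM, 55.3% of all genes were negative, against 82.0% of the members. At that level both Lhx2 cKO libraries lay below both controls for 35.3% of all genes and 70.0% of the members. Of the members, Bcl11a changed by over 1.5-fold, to 62.7% of control, and Actl6a was next at 66.9%.

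**Figure D1:**
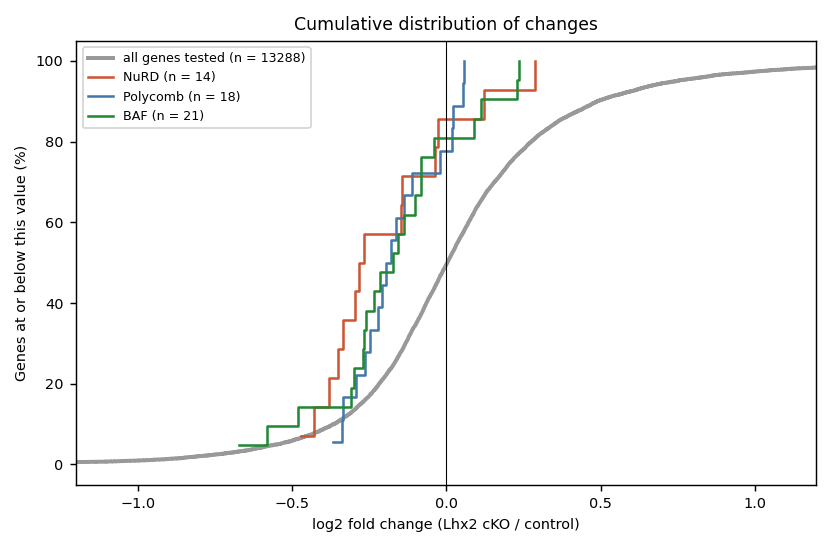
Cumulative share of genes (percent, vertical axis) at or below each log2 fold change, Lhx2 cKO over control (horizontal axis), for all 13288 genes tested and for the 14 NuRD, 18 Polycomb and 21 BAF members. The lines of the 3 complexes lie to the left of the line of all genes over most of the range, with medians of -0.27, -0.19 and -0.17 against 0.003.

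Sequence near the start of transcription is shown for a BAF pair and a NuRD pair in which one gene was called lower and its partner was not: Actl6a with Actl6b, and Chd4 with Chd5. Each run gives the 200 bases from 250 to 51 bases before the RefSeq start (GRCm38.p6, plus strand for all 4), a stretch that holds 0 exons of GENCODE M21. Capitals mark TAATTA, the core that LIM-homeodomain and many other homeodomain factors bind, and the GC box GGGCGG, on either strand (CCGCCC on the other). The windows lie at chr3:32708296-32708495 for Actl6a, chr5:137553296-137553495 for Actl6b, chr6:125095731-125095930 for Chd4 and chr4:152338401-152338600 for Chd5. The Actl6a window falls inside the M21 span of its own gene, chr3:32706298-32726973, so the RefSeq start it precedes is internal to that span.
Actl6a: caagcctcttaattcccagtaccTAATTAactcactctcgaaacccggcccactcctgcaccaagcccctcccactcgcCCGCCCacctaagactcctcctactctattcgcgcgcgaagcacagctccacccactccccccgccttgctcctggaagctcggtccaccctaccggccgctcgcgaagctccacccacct
Actl6b: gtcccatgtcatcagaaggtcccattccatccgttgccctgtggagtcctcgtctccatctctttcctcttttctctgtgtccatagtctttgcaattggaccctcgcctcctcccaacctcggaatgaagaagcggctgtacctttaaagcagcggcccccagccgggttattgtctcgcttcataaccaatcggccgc
Chd4: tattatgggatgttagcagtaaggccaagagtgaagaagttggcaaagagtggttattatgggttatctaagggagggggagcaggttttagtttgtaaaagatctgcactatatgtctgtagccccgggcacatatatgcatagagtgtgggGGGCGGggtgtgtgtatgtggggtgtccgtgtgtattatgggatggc
Chd5: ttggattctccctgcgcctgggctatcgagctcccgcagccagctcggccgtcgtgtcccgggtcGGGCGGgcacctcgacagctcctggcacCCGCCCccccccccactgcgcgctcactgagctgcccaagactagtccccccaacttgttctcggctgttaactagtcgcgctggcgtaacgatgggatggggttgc

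In these windows TAATTA occurred 1 time, in Actl6a, and the GC box 1 time in Actl6a, 1 time in Chd4, 2 times in Chd5 and 0 times in Actl6b. RefSeq promoter windows were matched by symbol for 44 of the 53 members. In the full 250 bases before the start, 2 of 44 members (4.55%), Actl6a and Phf19, held TAATTA, as did 4.90% of the 27025 promoters in the table. The GC box was in 37 of 44 (84.1%) against 32.9% of all promoters. The members' windows held a median of 22.5 CpG dinucleotides and 66.8% G and C, against 6 and 52.0% over all promoters in the table, which include genes not expressed in this tissue. A match is a description of letters and not evidence of binding.

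Of the 14 NuRD members 8 were called, all lower (57.1%), against the 9.17% called lower over all genes. They had a median log2 fold change of -0.27. At least 1 gene of each of its 6 functional classes fell: the motors, the deacetylases, the MTA scaffolds, the MBD proteins, the histone chaperones and the bridging GATAD2 proteins. Both Lhx2 cKO libraries lay below both controls for 10 of the 14 (71.4%). They did so for 29.1% of all genes tested and 35.3% of those with a control mean of at least 20 CPM. In the fits that leave out 1 library the count of called NuRD genes was 2 without control 1, 7 without control 2, 3 without Lhx2 cKO 1 and 5 without Lhx2 cKO 2.

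The motors differed in level and in change. Per kilobase of gene length, Chd3 led with a control mean of 178 CPM per kb, followed by Chd4 at 59.5 and Chd5 at 10.7 CPM per kb. Chd3 was at 1594 and 1415 CPM in control and at 1145 and 1089 CPM in Lhx2 cKO (log2 fold change -0.43, SE 0.114, adjusted p 0.00498). Both Lhx2 cKO libraries were below both controls, and the adjusted p was 0.103 without control 1. Chd4, the motor tied to progenitor proliferation, fell from 494 and 461 CPM to 387 and 390 CPM (log2 fold change -0.30, SE 0.101, adjusted p 0.0305), again with no overlap of the groups. Its adjusted p was 0.193 without control 1, 0.103 without Lhx2 cKO 1 and 0.0995 without Lhx2 cKO 2. For Chd5, the motor of maturing neurons, the values were 115 and 91.3 CPM in control and 121 and 103 CPM in Lhx2 cKO. These groups overlapped (log2 fold change 0.12, SE 0.104, adjusted p 0.443). As a share of the summed level per kb of the motors, Chd3 took 72.0% and 71.4% in control against 69.0% and 68.5% in Lhx2 cKO, Chd5 4.56% and 4.06% against 6.43% and 5.73%, and Chd4 23.5% and 24.5% against 24.6% and 25.8%.

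Of the deacetylases, Hdac1 fell and Hdac2 was not called. Hdac1 was at 32.0 and 31.0 CPM in control and at 22.9 and 22.5 CPM in Lhx2 cKO (log2 fold change -0.47, SE 0.117, adjusted p 0.00272), and its call was kept without each library in turn, with adjusted p from 0.00973 to 0.0239. Its level is uncertain, because the processed pseudogene Gm10093 matches its transcript at 99.4% identity over 1444 bases and reads could be split between them. Hdac2, the more abundant enzyme at 58.2 against 9.15 CPM per kb in control, was at 253 and 267 CPM in control and at 236 and 233 CPM in Lhx2 cKO (log2 fold change -0.15, SE 0.096, adjusted p 0.295). Hdac2 did not overlap between the groups either, so the pair was lower in both Lhx2 cKO libraries with a larger fold change for the rarer gene.

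The scaffolds, which dimerize and hold the deacetylases, fell for Mta1 and Mta2. Mta1 was at 234 and 176 CPM in control and at 158 and 157 CPM in Lhx2 cKO (log2 fold change -0.38, SE 0.104, adjusted p 0.00682). Control 1 stood above the other 3 libraries, and without it the log2 fold change of Mta1 was -0.18 with an adjusted p of 0.373. Mta2 fell from 217 and 222 CPM to 183 and 181 CPM (log2 fold change -0.27, SE 0.095, adjusted p 0.0389). This call was lost in every fit with 1 library left out, with adjusted p of 0.082, 0.137, 0.113 and 0.164 without control 1, control 2, Lhx2 cKO 1 and Lhx2 cKO 2. Mta3 was at 29.3 and 24.4 CPM in control and at 26.5 and 26.1 CPM in Lhx2 cKO, inside the range of the controls.

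MBD2 and MBD3 are alternative subunits, of which MBD2 binds methylated DNA and mammalian MBD3 largely does not. Mbd3 fell from 279 and 226 CPM to 207 and 208 CPM (log2 fold change -0.28, SE 0.101, adjusted p 0.0403). The call rested on control 1: without it the log2 fold change was -0.13 and the adjusted p 0.529, and the adjusted p was 0.108 and 0.116 without Lhx2 cKO 1 and Lhx2 cKO 2. DESeq2 gave an adjusted p of 0.0525 for Mbd3. Mbd2 was at 20.8 and 24.4 CPM in control and at 30.1 and 25.0 CPM in Lhx2 cKO, and its log2 fold change, 0.29 (SE 0.126), was not called (adjusted p 0.105). Both Lhx2 cKO libraries lay above both controls for Mbd2, opposite to Mbd3. The ratio of Mbd3 to Mbd2 per kb was accordingly 21.7 and 14.97 in control against 11.1 and 13.4 in Lhx2 cKO.

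RBBP4 and RBBP7 are WD-repeat histone chaperones that NuRD shares with PRC2 and other complexes. Rbbp4 fell from 182 and 168 CPM to 129.8 and 145 CPM (log2 fold change -0.35, SE 0.096, adjusted p 0.00646), with adjusted p of 0.0636 without control 1 and 0.105 without Lhx2 cKO 1. Exons of Sync and Gm26722 on the other strand cover 8.94% and 9.10% of its exon bases in M21. Rbbp7, close to Rbbp4 in control at 20.1 against 20.02 CPM per kb, was at 56.9 and 60.3 CPM in control and at 55.6 and 58.5 CPM in Lhx2 cKO (log2 fold change -0.04, SE 0.0998, adjusted p 0.833). Its groups overlapped, and the ratio of Rbbp7 to Rbbp4 per kb went from 0.938 and 1.08 in control to 1.29 and 1.22 in Lhx2 cKO. The level of Rbbp7 is uncertain, as the processed pseudogene Gm6382 matches its transcript at 97.1% identity over 942 bases. Txlng on the other strand shares 5.98% of the exon bases of Rbbp7. Gatad2b, which bridges the motor to the MBD module, fell from 119 and 116 CPM to 87.0 and 99.6 CPM (log2 fold change -0.34, SE 0.097, adjusted p 0.00994), with an adjusted p of 0.169 without Lhx2 cKO 1. Gatad2a, the other bridge, was at 62.8 and 65.9 CPM in control and at 60.9 and 55.8 CPM in Lhx2 cKO (log2 fold change -0.14, SE 0.0999, adjusted p 0.345).

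Among 12 further genes listed as NuRD partners or zinc-finger cofactors, 6 were called, all lower, with a median log2 fold change of -0.33. Of all genes tested, 9.17% were called lower. Cdk2ap1, a small NuRD subunit, fell from 164 and 161 CPM to 105 and 112 CPM (log2 fold change -0.58, SE 0.094, adjusted p 8.19e-06). Kdm1a, the histone demethylase LSD1, fell from 312 and 301 CPM to 239 and 239 CPM (log2 fold change -0.36, adjusted p 0.00589), and Rcor2, its CoREST cofactor in neural progenitors, from 626 and 512 CPM to 335 and 290 CPM (-0.87, adjusted p 5.62e-08). Zfp219 (-0.61), Sall1 (-0.79) and Zfp687 (-0.49) were the other genes called. Both Lhx2 cKO libraries lay below both controls for 9 of the 12 (75.0%), Cdk2ap1, Kdm1a and Rcor2 among them, against 29.1% of all genes.

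**Figure D2:**
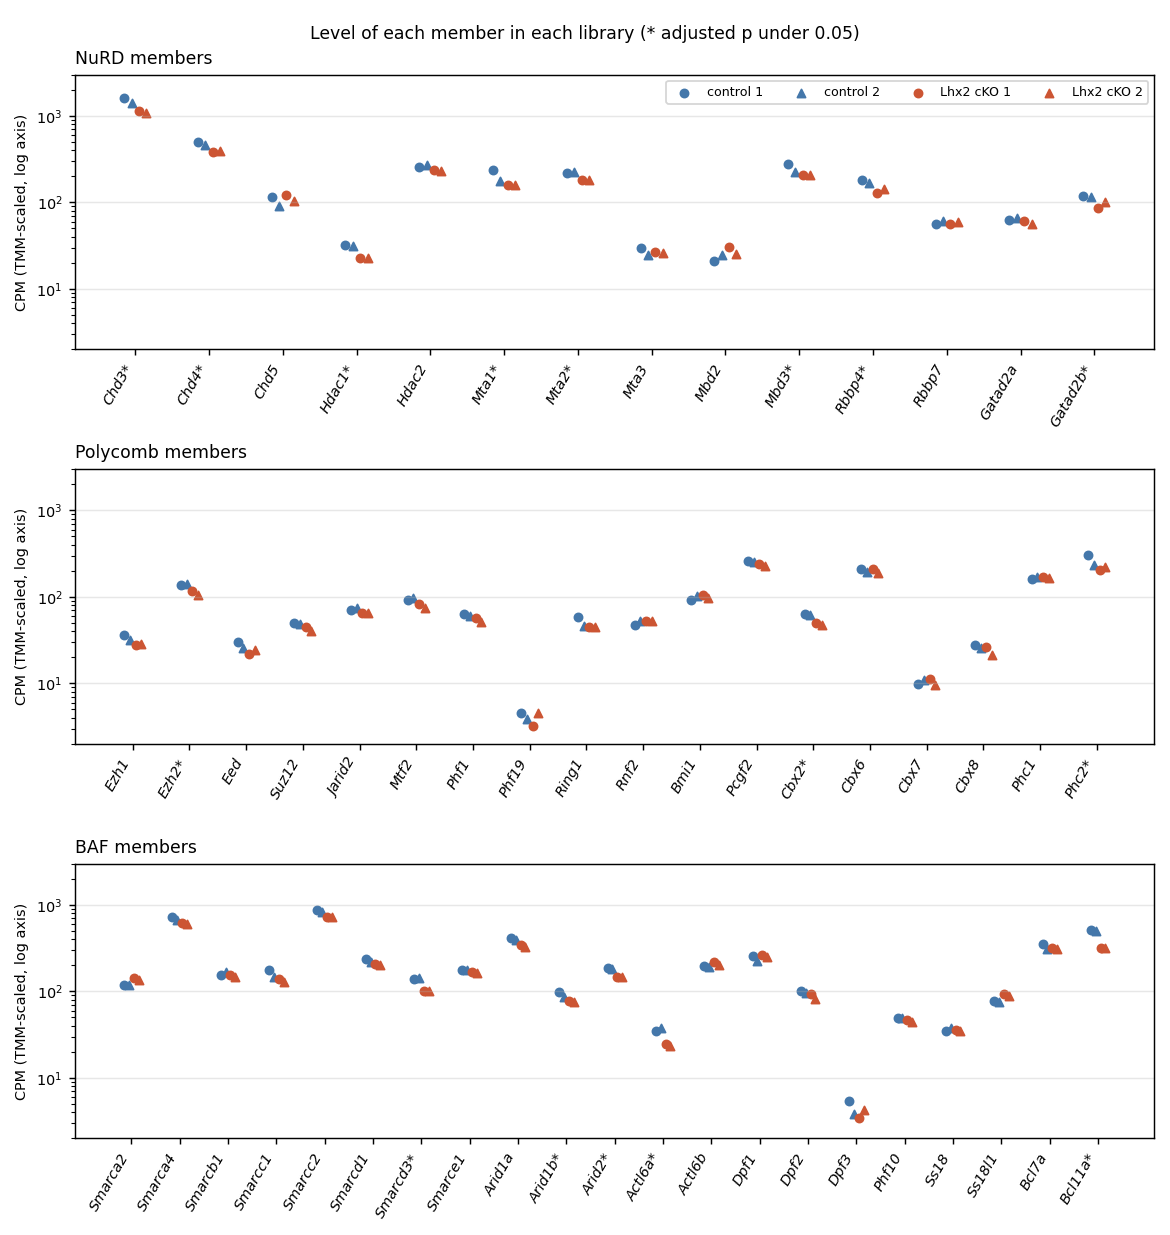
Level of each member in CPM, scaled with TMM, on a log axis, in control 1 and 2 (blue) and Lhx2 cKO 1 and 2 (red), for the 14 NuRD, 18 Polycomb and 21 BAF members, with an asterisk for an adjusted p under 0.05. The levels span from 3.21 CPM for Phf19 to 1594 CPM for Chd3, and the red points of every gene with an asterisk lie below its blue points.

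Polycomb had fewer calls. Of 18 members 3 were called, all lower, 16.7% against the 9.17% of all genes called lower, with a median log2 fold change of -0.19. In the fits without 1 library the count of called Polycomb genes was 2 without control 1, 5 without control 2, 3 without Lhx2 cKO 1 and 1 without Lhx2 cKO 2, and with the replicate number as a block and a trend on GC content removed it was 6. All 8 PRC2 genes had a negative log2 fold change, from -0.34 to -0.11, against 49.5% of all genes tested. For 7 of the 8 both Lhx2 cKO libraries lay below both controls, against 29.1% of all genes, yet 1 of the 8 was called. In PRC1, 6 of 10 genes were negative and 2 were called. The summed level per kb was 85.9 and 84.7 CPM per kb in control and 74.2 and 69.4 CPM per kb in Lhx2 cKO for PRC2, which is 84.2% of control by the means, and for PRC1 it was 244 and 231 against 222 and 214 CPM per kb, or 91.8%.

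Ezh2, the main methyltransferase of PRC2 in dividing cells, was the PRC2 gene called. It was at 138 and 140.2 CPM in control and at 116 and 104 CPM in Lhx2 cKO (log2 fold change -0.34, SE 0.095, adjusted p 0.00805), with an adjusted p of 0.147 without Lhx2 cKO 2. Ezh1, its paralog that prevails in non-dividing cells, was at 35.8 and 32.0 CPM in control and at 27.7 and 28.7 CPM in Lhx2 cKO (log2 fold change -0.26, SE 0.113, adjusted p 0.0926). Ezh2 made up 81.2% and 83.0% of the summed level per kb of both in control and 82.3% and 80.2% in Lhx2 cKO, with overlap of the groups. The core subunits Eed, which reads the methyl mark, and Suz12, the scaffold, had log2 fold changes of -0.29 (SE 0.123, adjusted p 0.0863) and -0.21 (SE 0.102, adjusted p 0.152). Eed was at 30.4 and 25.8 CPM in control and at 21.9 and 24.0 CPM in Lhx2 cKO, and Suz12 at 49.5 and 48.8 CPM against 44.3 and 40.8 CPM.

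The accessory PRC2 subunits, which help recruit the complex to CpG-rich DNA, were not called in any of 4 genes by edgeR, and among all 8 PRC2 genes 5 had an unadjusted p under 0.05, which 32.0% of all genes tested had. Mtf2 was at 91.5 and 95.9 CPM in control and at 83.5 and 74.4 CPM in Lhx2 cKO (log2 fold change -0.25, SE 0.098, adjusted p 0.0655), Jarid2 at 71.1 and 74.8 CPM against 64.5 and 65.9 CPM, and Phf1 at 63.3 and 60.9 CPM against 57.5 and 50.9 CPM. Phf1 shares 39.3% of its exon bases with Cuta on the other strand, so its level is uncertain. Phf19, the member with the lowest level of the 53, was at 4.495 and 3.92 CPM in control and at 3.21 and 4.57 CPM in Lhx2 cKO, with overlap.

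PRC1 uses a CBX protein to bind methylated histone H3, a PHC protein to form larger assemblies and a RING and PCGF pair as the ubiquitin ligase. Cbx2, a CBX protein common in progenitors, fell from 63.0 and 62.1 CPM to 49.97 and 47.0 CPM (log2 fold change -0.37, SE 0.1001, adjusted p 0.00617), with an adjusted p of 0.0823 without Lhx2 cKO 2. Its share of the summed level per kb of the 4 CBX members was 33.8% and 35.2% in control against 29.0% and 30.7% in Lhx2 cKO. The other members of that family were not called: Cbx6 was at 212 and 193 CPM in control and at 211 and 188 CPM in Lhx2 cKO. Cbx7 was at 9.77 and 10.8 CPM against 11.2 and 9.62 CPM, and Cbx8 at 27.7 and 25.6 CPM against 26.0 and 21.1 CPM, so the groups overlapped for each of Cbx6, Cbx7 and Cbx8.

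Phc2 fell from 304 and 232 CPM to 204 and 221 CPM (log2 fold change -0.33, SE 0.106, adjusted p 0.0188). Here the control libraries differed by more than the groups did at their nearest, and without control 1 the log2 fold change was -0.14 with an adjusted p of 0.517, while without Lhx2 cKO 1 the adjusted p was 0.111. Its paralog Phc1 was at 160 and 168 CPM in control and at 169 and 164 CPM in Lhx2 cKO (log2 fold change 0.02, SE 0.094). The ligase genes were not called: Rnf2 had a log2 fold change of 0.06 (SE 0.102), Bmi1 0.05 (SE 0.097), Pcgf2 -0.14 (SE 0.096) and Ring1 -0.22 (SE 0.108), with adjusted p from 0.149 to 0.756. Ring1 was at 58.3 and 45.7 CPM in control against 44.3 and 44.8 CPM in Lhx2 cKO, where control 1 stood apart, and Rnf2 at 47.1 and 52.9 CPM against 52.1 and 52.0 CPM. Of the PCGF partners, Bmi1 was at 92.4 and 103 CPM in control against 105 and 97.6 CPM in Lhx2 cKO, with overlap, and Pcgf2 at 261 and 255 CPM against 242 and 228 CPM, without. The level of Bmi1 is uncertain, as Gm5946 matches its transcript closely. Pcgf2 was the most abundant of the 4 per kb, at 73.3 CPM per kb in control.

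Of 20 other Polycomb genes listed, 5 were called, all lower (25.0%, against 9.17% of all genes), with a median log2 fold change of -0.16. They were Bcor (-0.58, adjusted p 2.71e-05), Kdm2b (-0.26, adjusted p 0.0461), Pcgf3 (-0.32), Rybp (-0.33) and Lcor (-0.51); the first 4 encode subunits of variant PRC1, and Lcor shares its locus with a PRC2 accessory protein. Of 10 measured genes that act against Polycomb 6 were called, all lower, with a median log2 fold change of -0.32. Kdm6b, a demethylase of the PRC2 mark, was at 420 and 343 CPM in control and at 275 and 259.9 CPM in Lhx2 cKO (log2 fold change -0.51, SE 0.104, adjusted p 2.44e-04). Its X-linked paralog Kdm6a had -0.46, and the Trithorax-type methyltransferases Kmt2d, Kmt2b and Kmt2c had -0.65, -0.33 and -0.31. Asxl2 (-0.39) was the remaining gene called. Kmt2d was at 446 and 274 CPM in control against 222 and 238 CPM in Lhx2 cKO, where control 1 stood apart. Textbook targets of Polycomb silencing lie in the Hox and Cdkn2 loci, and 0 of 54 genes listed there were among the genes tested. Their levels could not be compared between the groups.

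BAF, the largest set, had 5 of 21 members called, all lower, 23.8% against 9.17% of all genes, with a median log2 fold change of -0.17. The count was 3 without control 1, 6 without control 2, 3 without Lhx2 cKO 1 and 3 without Lhx2 cKO 2, and 8 with the replicate number as a block and the GC trend removed. Bcl11a, Actl6a and Smarcd3 were called in each of these fits, while Arid2 and Arid1b were called without control 2 but not in the other 3 fits without 1 library. By the authors' deposited table, an adjusted p under 0.05 was given to 18 of the 53 members and to 9.38% of all genes on the lower side, 8 of the members being of NuRD, 3 of Polycomb and 7 of BAF, and the extra pair was Arid1a and Smarcc1.

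Bcl11a, a zinc-finger factor of cortical projection neurons that is also found in BAF, had the largest change of all 53 members. Its gene lies at chr11:24078056-24174123 in GRCm38. It was at 515 and 496 CPM in control and at 317 and 317 CPM in Lhx2 cKO (log2 fold change -0.67, SE 0.1005, adjusted p 1.99e-06). Replicates of each group lay close together and the groups were well apart. Its paralog Bcl11b, no member but listed among further BAF genes, was not called (log2 fold change -0.25, adjusted p 0.0522).

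Among the subunits exchanged between progenitors and neurons, Actl6a fell while its neuronal counterpart Actl6b was not called. Actl6a (chr3:32706298-32726973 in GRCm38) was at 34.97 and 37.4 CPM in control and at 24.9 and 23.5 CPM in Lhx2 cKO (log2 fold change -0.58, SE 0.114, adjusted p 1.65e-04). Mrpl47 on the other strand shares 11.6% of the exon bases of Actl6a and was at 19.6 and 18.5 CPM in control and at 21.2 and 19.2 CPM in Lhx2 cKO. Actl6b was at 196 and 189.5 CPM in control and at 216 and 201 CPM in Lhx2 cKO, both above both controls (log2 fold change 0.11, SE 0.095, adjusted p 0.450). Per kb, Actl6b exceeded Actl6a by 5.10 and 4.62 times in the control libraries and by 7.88 and 7.80 times in the Lhx2 cKO libraries. The log2 ratio thus differed by 0.69 between the group means, the largest difference of the 22 pairs set side by side.

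The other progenitor-type subunits did not share the fall of Actl6a at the test's threshold. Phf10 was at 49.3 and 49.8 CPM in control and at 46.2 and 43.8 CPM in Lhx2 cKO (log2 fold change -0.14, SE 0.101, adjusted p 0.369), and Ss18 at 34.8 and 37.2 CPM against 35.5 and 34.7 CPM (-0.04, SE 0.107, adjusted p 0.844). On the neuronal side, Ss18l1, the calcium-responsive coactivator CREST, was at 77.2 and 76.1 CPM in control and at 92.3 and 88.3 CPM in Lhx2 cKO, above both controls but not called (log2 fold change 0.24, SE 0.096, adjusted p 0.0766). Dpf1 was at 253 and 226 CPM in control and at 260.1 and 249.6 CPM in Lhx2 cKO, with overlap, and Dpf3 was at 5.44 and 3.84 CPM against 3.47 and 4.22 CPM. Within libraries, the ratio of Ss18l1 to Ss18 per kb was 5.2 and 4.80 in control against 6.10 and 5.97 in Lhx2 cKO. That of Dpf1 to Phf10 was 4.69 and 4.16 against 5.14 and 5.21, while that of Dpf3 to Phf10 overlapped between the groups.

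Of the alternative BAF motors, Smarca4 (BRG1) exceeded Smarca2 (BRM) in every library. Smarca4 was at 731 and 669.9 CPM in control and at 614 and 593 CPM in Lhx2 cKO (log2 fold change -0.22, SE 0.106, adjusted p 0.152), and Smarca2 at 119 and 118 CPM against 141 and 137 CPM (0.23, SE 0.093, adjusted p 0.0761). Neither was called, and both were separated between the groups, in opposite directions. Smarca2 made up 6.89% and 7.40% of the level per kb of both in control and 9.46% and 9.48% in Lhx2 cKO.

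In the BAF core, 6 of 6 genes had a negative log2 fold change, as did 49.5% of all genes tested, and Smarcd3 was called. Smarcd3 (BAF60C) was at 138 and 143 CPM in control and at 100.5 and 100.3 CPM in Lhx2 cKO (log2 fold change -0.48, SE 0.094, adjusted p 1.46e-04). This value is uncertain, since Chpf2 on the other strand shares 48.2% of the exon bases of Smarcd3 and moved by a like amount, from 63.9 and 59.3 CPM to 45.3 and 43.5 CPM (log2 fold change -0.47, SE 0.101). Without knowledge of how strand was used in counting, the reads of Smarcd3 and Chpf2 cannot be told apart. Smarcd1 was at 239 and 219 CPM in control and at 204 and 202 CPM in Lhx2 cKO (-0.17, adjusted p 0.215).

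The paired scaffold genes of the core, Smarcc2 and Smarcc1, were at 873 and 825 and at 174 and 147 CPM in control. In Lhx2 cKO they were at 729 and 714 and at 139 and 129 CPM. Their log2 fold changes were -0.23 (adjusted p 0.120) and -0.26 (adjusted p 0.0526), and their ratio per kb, 7.06 and 7.93 in control against 7.41 and 7.80 in Lhx2 cKO, overlapped. Smarcb1 and Smarce1, single-copy core subunits, had -0.10 (SE 0.095) and -0.08 (SE 0.094).

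ARID subunits define the form of the complex, ARID1A or ARID1B for canonical BAF and ARID2 for PBAF. Arid2 fell from 185 and 179 CPM to 146 and 148 CPM (log2 fold change -0.31, SE 0.094, adjusted p 0.0151), and Arid1b from 99.3 and 86.6 CPM to 76.5 and 74.7 CPM (-0.30, SE 0.099, adjusted p 0.0257). Arid1a, at 414 and 388 CPM in control and 340.4 and 326 CPM in Lhx2 cKO, had -0.27 (SE 0.0996) with an adjusted p of 0.0512, so the 3 estimates lay within 1 SE of each other on either side of the threshold. Without control 1, Lhx2 cKO 1 and Lhx2 cKO 2 the adjusted p was 0.0717, 0.0766 and 0.0649 for Arid2 and 0.277, 0.0632 and 0.128 for Arid1b. With a trend on gene length removed, Arid1b and Chd4 were not called. Dpf2 (-0.16, SE 0.098) and Bcl7a (-0.08, SE 0.099) were not called. Of 10 further BAF genes 3 were called, all lower: Smarcd2 (-0.36), Bicra (-0.34) and Pbrm1 (-0.26), with adjusted p from 0.0128 to 0.0451. For comparison, 9.17% of all genes tested were called lower, and 12% of those with a control mean of at least 20 CPM.

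**Figure D3:**
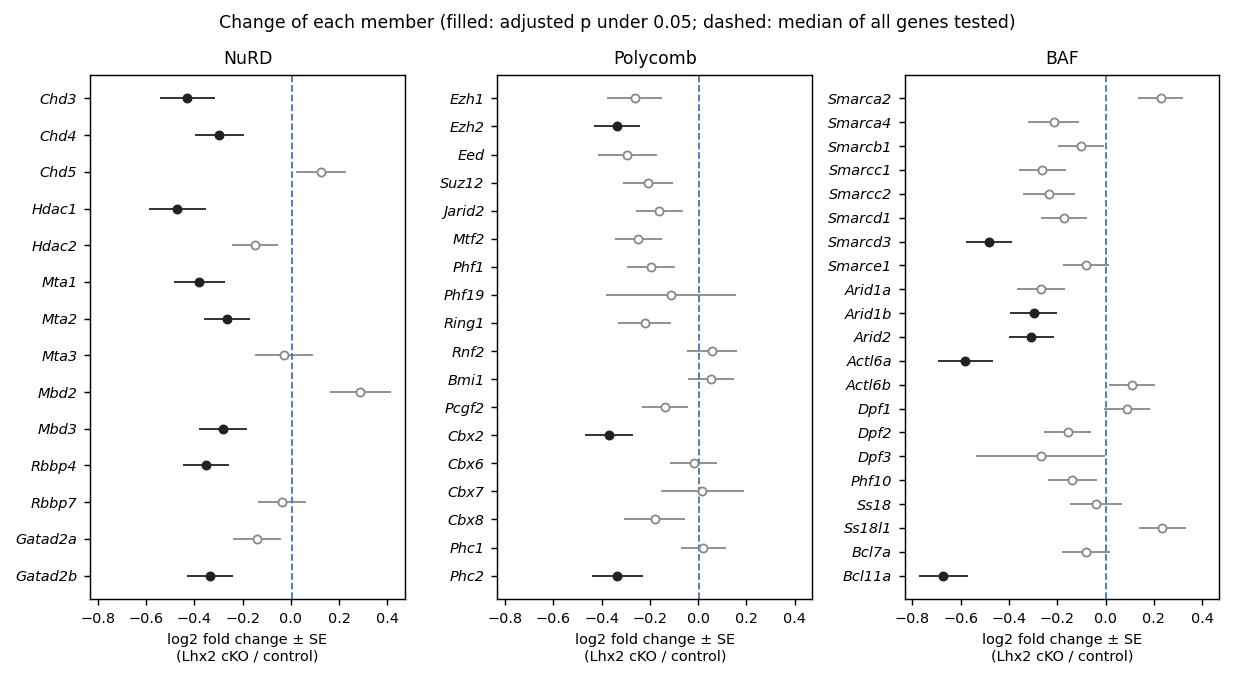
Log2 fold change, Lhx2 cKO over control, with its SE (horizontal axis) for each NuRD, Polycomb and BAF member, filled where the adjusted p was under 0.05, with a dashed line at 0.003, the median of all genes tested. Filled points lie between -0.67 (Bcl11a) and -0.27 (Mta2), and the highest open point is Mbd2 at 0.29.

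Ratios between paralogs or alternative subunits were set side by side for 22 pairs, as counts per kb of one gene over the other within a library, which needs no scaling between libraries. With 2 libraries against 2 an exact permutation test cannot give a p below 0.333, so no pair was tested. Lhx2 cKO libraries lay above both controls for 9 pairs, below both for 6 and overlapped for 7. The side depends on which gene of a pair was the numerator. Groups of single genes were separated for 59.3% of all genes tested, which is an unlike measure, and no share over other gene pairs was computed. Apart from Actl6b over Actl6a, the pairs with the largest differences of group means were Mbd3 over Mbd2 (-0.56 on the log2 scale), Smarca2 over Smarca4 (0.44), Chd5 over Chd4 (0.42) and Cbx7 over Cbx2 (0.38). Pairs that kept their ratio most closely were Smarcc2 over Smarcc1 (0.02), Arid1b over Arid1a (-0.03) and Ezh1 over Ezh2 (0.08), each with overlap of the groups.

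**Figure D4:**
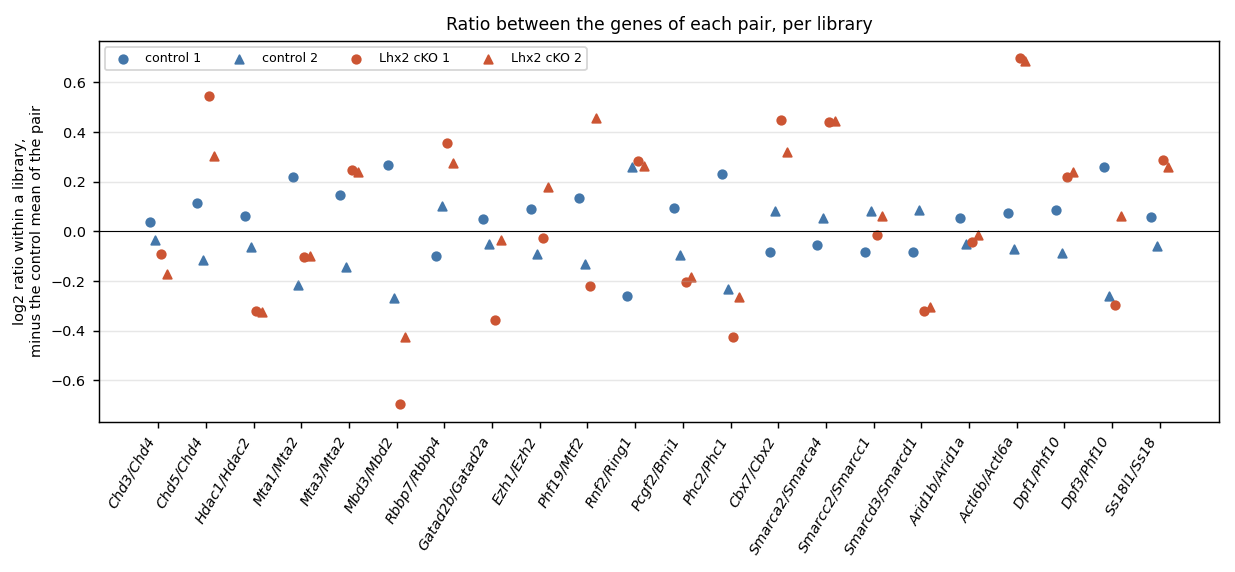
Log2 ratio of counts per kb within each library for 22 pairs, minus the control mean of the pair (vertical axis), for control 1 and 2 (blue) and Lhx2 cKO 1 and 2 (red). The red points of Actl6b/Actl6a sit 0.69 above the control mean on average and those of Mbd3/Mbd2 sit 0.56 below it.

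Other ATP-dependent remodelers outside the 3 complexes also changed. Of 14 listed, 6 fell (42.9%) and 1 rose, where 9.17% of all genes were called lower and 11.6% higher. The median log2 fold change of the 14 was -0.23. Srcap had the lowest log2 fold change of these, at 25.6 and 16.1 CPM in control and at 9.32 and 10.01 CPM in Lhx2 cKO (log2 fold change -1.11, SE 0.168, adjusted p 2.70e-06), and Smarca5, the ISWI motor SNF2H, had -0.50 (adjusted p 4.24e-04). Hells, a remodeler active in dividing cells, had -0.59 and Atrx -0.34. The rise was that of Smarca1, the ISWI paralog SNF2L of differentiating neurons, from 19.6 and 18.6 CPM to 29.8 and 28.3 CPM (log2 fold change 0.61, SE 0.123, adjusted p 2.69e-04). Smarca1 and Smarca5 were thus both called, in opposite directions, and the groups did not overlap for either.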

How the data were processed

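RNA-seq was measured in 4 libraries of embryonic cortex. The deposited values are raw read counts per gene, with the authors' gene length in bases and their log2 fold change and adjusted p-value, per the file headers. Trim Galore, Subread, featureCounts, edgeR and mm39 are named in the submitters' processing notes, without roles; versions, annotation and strand setting are not given in the sources used here. Replicates were not the same library deposited again: the chi-square of their counts over its degrees of freedom was 13.9 in control and 14.3 in Lhx2 cKO.

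Here edgeR 4.0.16 in R 4.3.3 was run on all genes with TMM scaling, filterByExpr (minimum count 10) and glmQLFTest, two-sided, with Benjamini-Hochberg adjustment over the 13288 genes tested. SE is the absolute log2 fold change over the square root of F. CPM per kb uses the deposited length. A count of 3 corresponds to 0.122 to 0.135 CPM, covering counting error only. Alternatives were 3 other scalings, 2 other filters, a replicate block, DESeq2 1.42.0, limma-voom (limma 3.58.1), an adjusted p under 0.01, each library left out, and, added after seeing the data, trends on GC content or gene length removed with a spline of 5 degrees of freedom.

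Members, gene lists and pairs were chosen with earlier results of these data known. All called members are named with values per library, as are the pairs; of other lists up to 5 genes by smallest p were named, with further called genes added after their values were seen. Overlaps and copies (at least 95% identity over 300 bases) came from GENCODE M21, which is GRCm38 and not the authors' build, and promoters from RefSeq GRCm38.p6; they were joined by identifier or symbol only.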

Additional observations from a re-analysis of the deposited data

How the results depend on the processing

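All 16 called members kept a negative log2 fold change under each alternative run. With all libraries and an adjusted p under 0.05, 7 or 8 NuRD members were called, 3 to 6 of Polycomb and 5 to 8 of BAF, 2170 to 3261 of all genes and 16 to 23 of the further genes of these complexes and antagonists, against 8, 3, 5, 2758 and 20. Of these alternatives, the replicate block with the GC trend removed moved a count by more than 1.5 times, to 6 for Polycomb and 8 for BAF; the cause was not tested. The replicate block alone gave 8, 3 and 7 and 2874 genes; it took no call from a member. The differences between replicates correlated at 0.001 across the groups. With a single pair of libraries per group, this cannot tell whether equal replicate numbers share a litter or batch. At an adjusted p under 0.01 the counts were 5, 2 and 3, with 1697 of all genes and 10 of the further genes. Without 1 library they ranged from 2 to 7, 1 to 5, 3 to 6, 1633 to 2396 and 11 to 18, with fewer samples by construction, and the log2 fold change of Lhx2 ranged from -0.38 to -0.25. The members that kept their calls in all 4 of those fits were Bcl11a, Actl6a, Smarcd3 and Hdac1. Mbd3 lost its call under DESeq2, the GC trend and a mean count of at least 50, and Chd4 and Arid1b with the length trend. With that trend removed Smarca2 was called higher. The SE of the members' log2 fold changes had a median of 0.0999 and reached 0.271 for Phf19, the member with the lowest level.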
